A study of Mus musculus with 15 samples.

Results

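Cytosolic ribosomal proteins are the structural proteins of the ribosomes that translate nuclear mRNAs. They were taken here as the mouse genes whose symbol starts with Rpl or Rps followed by a digit, a or p, without the Rps6k kinases, Rps19bp1, Rpl7l1, pseudogenes and probe sets listed with several symbols. Each gene was read from 1 probe set, the one with the highest mean signal. The rule found 48 of the 18193 genes on the array, namely 20 genes of the large subunit, 21 of the small subunit, the stalk genes Rplp0 and Rplp2, and 5 paralogs, which are second copies of a ribosomal protein gene (Rpl3l, Rpl22l1, Rpl39l, Rps4l and Rps27l). Of these, 45 passed the filter on dim genes (a signal at or above the array's median on at least 3 arrays), as did 13160 of all genes. Rpl14, Rpl3l and Rps16 were below the array median on every array, with mean signals of 46, 84 and 23, and were not tested.

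RNA came from murine AM-14 B cells, whose transgenic receptor is a rheumatoid factor that binds antibodies of the IgG2a class. There were 5 groups of 3 arrays, 15 in all: cells in media alone, cells given anti-IgM (a goat antibody fragment that crosslinks the B cell receptor), cells given CpG oligodeoxynucleotide 1826 (a ligand of Toll-like receptor 9), cells given PL2-3 (an antibody to nucleosomes that forms immune complexes with chromatin and so reaches both receptors), and cells given anti-IgM with CpG. All groups carry the same source label. The labels name no strain, age, cell purification, dose or time. They also do not say that replicates came from separate mice or cultures, and the p-values then measure only how far these arrays differ, which may be technical. The treatment field of the anti-IgM+CpG arrays reads none, and their group was taken from their titles.

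Ribosomal protein mRNAs are among the most abundant of any dividing or resting cell. Many of them begin with a C followed by a run of pyrimidines, the terminal oligopyrimidine motif, through which mTORC1 and the RNA-binding protein Larp1 control how much of the mRNA is on ribosomes. A resting lymphocyte that is activated grows and makes ribosomes, and much of its control of ribosomal protein output is known to act on translation of these mRNAs, which an array of total mRNA does not measure.

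The annotated 5′ starts are shown for the genes on which the results turn and for 4 genes with the motif. RefSeq (GRCm38.p6) gave starts for 42 of the 48 genes. Each window holds 15 bases before and 15 bases from the annotated start, and capitals mark the pyrimidine run that begins at the start where its first base is a C.
Rps27l: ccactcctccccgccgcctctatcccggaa
Rps25: tttttccgacatcttagcgaggctgctgtg
Rpl12: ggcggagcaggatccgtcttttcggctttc
Rps27: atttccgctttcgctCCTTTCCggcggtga
Rps18: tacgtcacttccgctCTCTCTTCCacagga
Rps6: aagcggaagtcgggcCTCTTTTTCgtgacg
Rplp2: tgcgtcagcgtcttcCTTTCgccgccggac
The windows lie at chr9:66946071-66946100 (+) for Rps27l, chr9:44407699-44407728 (+) for Rps25, chr2:32961697-32961726 (+) for Rpl12, chr3:90213634-90213663 (-) for Rps27, chr17:33955651-33955680 (-) for Rps18, chr4:86857353-86857382 (-) for Rps6 and chr7:141447636-141447665 (+) for Rplp2. Rps27 and its paralog Rps27l differ here, since the annotated start of Rps27 opens a run of 7 pyrimidines and that of Rps27l is a G. A second annotated start of Rps27l is also a G.

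A C followed by 4 pyrimidines (C or T) at an annotated start was found in 8 of the 42 genes (19.0%), namely Rpl14, Rpl35, Rpl38, Rplp2, Rps10, Rps18, Rps27 and Rps6, against 3.01% of the 27025 genes in the RefSeq table. The letters CTTTC, which can overlap that motif, were in the 30-base window of 11 of the 42 genes (26.2%) against 4.76% of all genes. Their reverse complement GAAAG was in 1 of the 42 windows (2.38%) against 4.21%. None of Rps27l, Rps25 and Rpl12 had the motif at an annotated start, and annotated starts can lie some bases from those used in B cells.

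Ribosomal protein mRNAs were among the brightest of each array. Among the 100 brightest genes of each array, 33 or 34 were ribosomal protein genes. The probe sets read for the 48 genes held between 2.97% and 4.82% of the summed signal of all 45037 probe sets besides controls. That sum also takes in probe sets with no symbol and further probe sets of ribosomal protein genes, which the share of the 48 genes leaves out. By mean signal 36 of them were in the top 2.5% of genes, and these are called the bright genes below. Signals of different probe sets are not comparable as levels of RNA, and the dim ones, such as Rps27 (2044), Rpl39 (3049), Rpl27a (3478), Rps6 (4354) and Rpl12 (5202, all mean signals over 15 arrays), say nothing about how much of these mRNAs the cells held.

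Arrays of the same group differed in how bright these genes were. In media, replicate 2 was the highest array for 33 of the 35 bright genes other than Rps27l and replicate 3 the lowest for 34, and the median ratio of the highest to the lowest array was 1.81. With anti-IgM+CpG, replicate 1 was the highest for all 35, with a median ratio of 1.64. The median ratio was 1.25 with anti-IgM, 1.25 with CpG and 1.1 with PL2-3. The 35 genes moved together from array to array, with a median Pearson r of 0.88 over 595 pairs of genes (range -0.14 to 0.99) across the 15 arrays, which share groups, labelling kits and scaling. Rps27l did not follow the mean of the other 35 (r = -0.30 over the same 15 arrays), nor did Rps25 (r = -0.18). Differences between groups were left in, so these 2 values also hold the lower signals of both genes in media, given below.

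**Figure D1:**
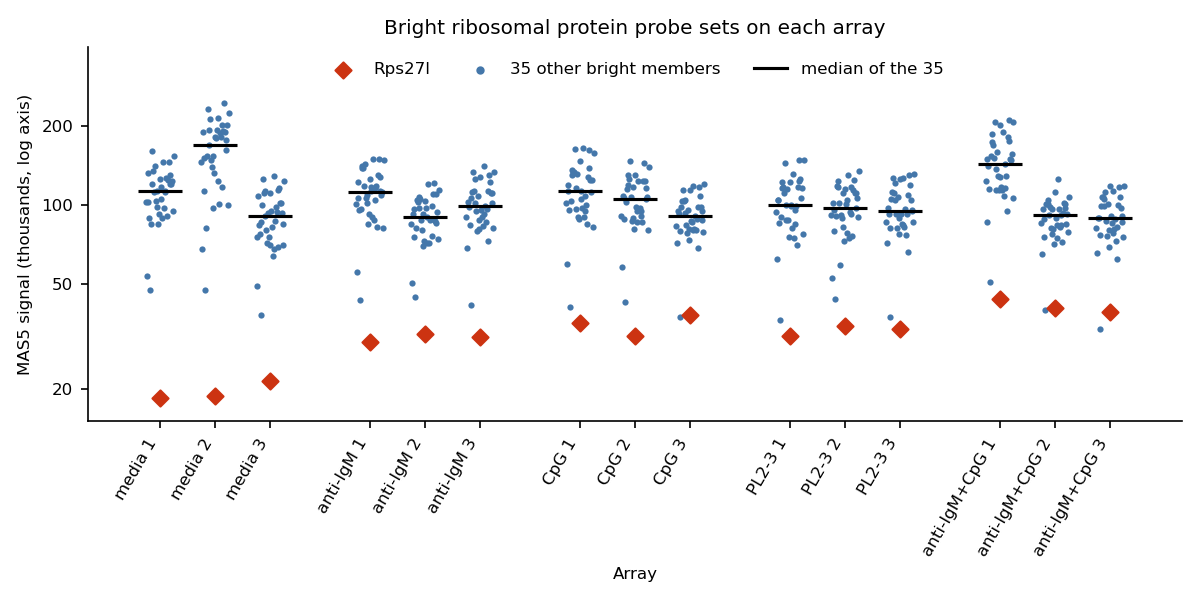
MAS5 signal on a log axis, for each of the 15 arrays, of the 35 bright ribosomal protein genes other than Rps27l (blue points, with their median as a black line) and of Rps27l (red diamonds). The 35 genes shift together between arrays, with media replicate 2 and anti-IgM+CpG replicate 1 highest, while Rps27l is at 21467 or below on the 3 media arrays and at 30136 or above on all others.

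Some facts of the whole set of arrays bear on every comparison. By the labels, replicates 1 and 2 of each group were labelled with an Enzo kit and replicate 3 with an Ambion kit. The 5′ actin control divided by the 3′ one, a value that falls with short cRNA, was 0.335 to 0.747 on the Enzo arrays of the first 4 groups, 0.108 to 0.201 on the Ambion arrays, and 0.105 to 0.193 on the anti-IgM+CpG arrays of either kit. Xist, the X inactivation RNA of female cells, was 321 to 589 on the anti-IgM+CpG arrays and 4252 to 15543 on the others, so that group stands apart from the rest. Of 10 B cell markers, 9 were measured and all 9 were at or above the median on every array. Their summed signal was 317679 to 523340 in media, 178441 to 214316 with anti-IgM, 211045 to 251602 with CpG, 159284 to 199569 with PL2-3 and 141659 to 295879 with anti-IgM+CpG. The brightest markers lead such sums, as Ighm did with 223101.5 of 295879 on anti-IgM+CpG replicate 1. Single markers differed with CpG, where 2 of the 9 had a log2 change above 0, and 5 were called lower (16.9% of all genes). With anti-IgM, PL2-3 and anti-IgM+CpG, 0 of the 9 were above 0. In these groups 6, 6 and 7 were called lower (9.32%, 13.5% and 24.8% of all genes). Of 7 myeloid markers, 6 were at or above the median on every array (Itgam was not), and their sum was 112695 to 235417 in media, 53475 to 93628 with anti-IgM, 45967 to 90124 with CpG, 48688 to 79576 with PL2-3 and 12701 to 144074 with anti-IgM+CpG. Of 6 T cell markers, 1 was at or above the median on every array, with sums of 5060 to 6534 in media, 1990 to 3548 with anti-IgM, 1956 to 3136 with CpG, 2063 to 3764 with PL2-3 and 1820 to 4327 with anti-IgM+CpG. The 3 measured of 6 erythroid markers summed to 71265 to 133257 in media and 28875 to 97087 over the stimulated groups, the 4 measured of 5 NK cell markers to 4793 to 6278 and 1302 to 4750, and the 4 plasma cell markers to 43102 to 132295 and 23790 to 126501. No marker was listed at 0. The part of these differences in the results below was not tested. In RNA from a whole culture, fewer cells of a type and less RNA per cell cannot be told apart, and as all arrays had similar mean signals (2320 to 2737), a change shared by all mRNAs cannot be seen.

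Few ribosomal protein genes were called as changed against media with any stimulus, on arrays where between 2561 and 5520 genes were. A gene that was not called may still have changed, within the intervals given below. Rps27l, a stress-linked paralog of Rps27 and known p53 target, rose 1.60-fold to 2.10-fold in all 4 stimulated groups, and Rps25, a small subunit protein known for its role in initiation at viral internal ribosome entry sites, rose 1.89-fold to 2.19-fold. Rpl12, a large subunit protein at the base of the stalk, was called higher in all 4 and Rps20, a protein of the small subunit's head, lower in 3, but these calls were lost when one or another single array was left out or, for Rpl12 with anti-IgM, on Enzo-labelled arrays alone. Most of the bright genes, among them Rpsa, Rps29 and Rps18, were not called in any comparison.

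Values were compared as log2(signal + 75.2) with limma, with a term for the kit, and a gene was called at a Benjamini-Hochberg adjusted p under 0.05 over all 13160 genes. Against media, anti-IgM called 3 of the 45 genes, all higher, where 19.5% of all genes tested were called (10.1% higher and 9.32% lower). CpG called 3 higher and 1 lower of 45, against 30.1% of all genes (13.1% higher and 16.9% lower). PL2-3 called 3 higher and 1 lower of 45, against 25.9% of all genes (12.4% higher and 13.5% lower). Anti-IgM+CpG called 4 higher and 2 lower of 45, against 41.9% of all genes (17.2% higher and 24.8% lower). As a share, 6.67% of the 45 genes were called with anti-IgM, 8.89% with CpG, 8.89% with PL2-3 and 13.3% with anti-IgM+CpG. These 4 comparisons share the 3 media arrays.

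The split of higher and lower calls depended on how the arrays were scaled. With all arrays shifted to the same median, CpG called 4 higher and 0 lower, PL2-3 called 3 and 0, and anti-IgM+CpG called 9 and 0. With quantile normalization, anti-IgM+CpG called 5 higher and 4 lower. Without the 2 arrays on which these genes were brightest (media replicate 2 and anti-IgM+CpG replicate 1, chosen after seeing the data), 3 genes were called higher and 0 lower with each of anti-IgM, CpG and PL2-3, and anti-IgM+CpG called 4 higher and 1 lower. Without anti-IgM+CpG replicate 1 alone, that group called 4 higher and 6 lower, 10 genes in place of 6. CpG called 2 genes without media replicate 2 or any 1 CpG array, and PL2-3 called 2 without its replicate 2 or 3. With labelling read from the actin control in place of the labels, anti-IgM+CpG called 3 higher and 0 lower. Shares of all genes called are given in this report only for the main fit to the deposited values. Counts under other settings therefore cannot be set against such a share. The median of all genes also moved with the scaling, as given below. These counts alone thus do not tell a change of the ribosomal protein genes from a shift of all genes.

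The median log2 change of the 45 genes was -0.20 with anti-IgM, -0.13 with CpG, -0.18 with PL2-3 and -0.18 with anti-IgM+CpG, where the median of all genes tested was -0.13, -0.21, -0.10 and -0.29. These medians have no settled direction, since under the same-median scaling they were 0.05, 0.23, 0.00 and 0.42 (all genes 0.12, 0.15, 0.09 and 0.30) and under quantile normalization 0.05, 0.05, 0.05 and 0.02 (all genes -0.01, -0.03, 0.02 and 0.03).

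**Figure D2:**
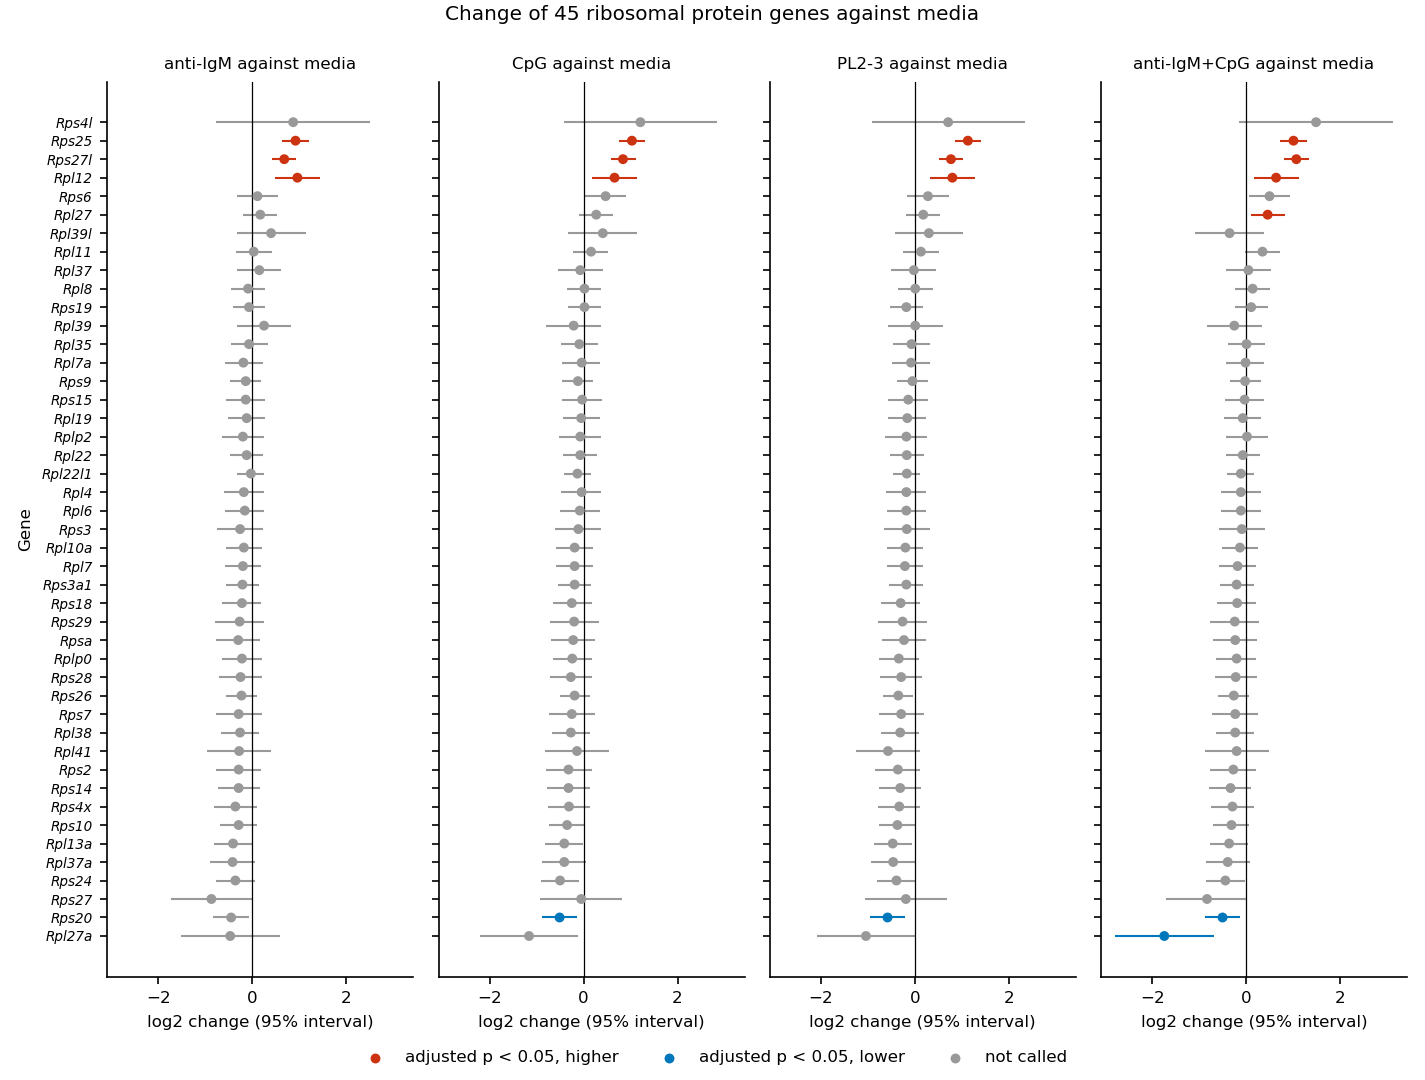
Log2 change against media of the 45 ribosomal protein genes tested, with 95% intervals from limma, in 4 panels by stimulus. Red and blue points passed an adjusted p of 0.05, and grey points did not. Rps25, Rps27l and Rpl12 are red in all 4 panels, and most other genes lie slightly left of 0.

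Rps27l had signals of 18479, 18675 and 21467 on the 3 media arrays, 30136, 32191 and 31570 with anti-IgM, 35671, 31702 and 37998 with CpG, 31808, 34647 and 33620 with PL2-3, and 43713, 40579 and 39171 with anti-IgM+CpG. Every stimulated array was above every media array. The group means were 19540 ± 1671 in media (SD, n = 3 here and below), 31299 ± 1054, 35123 ± 3184, 33358 ± 1437 and 41154 ± 2325 in the stimulated groups in the same order. The log2 change was 0.68 ± 0.12 (SE) with anti-IgM (adjusted p = 0.00118), 0.84 ± 0.12 with CpG (0.000106), 0.77 ± 0.12 with PL2-3 (0.000284) and 1.07 ± 0.12 with anti-IgM+CpG (6.82e-06), all from limma. Of its 3 probe sets, the other two rose by 0.88 and 0.93 with anti-IgM, 1.04 and 1.07 with CpG, 0.99 and 1.04 with PL2-3, and 1.26 and 1.27 with anti-IgM+CpG. The rise was called in each of the 31 alternatives run for the first 3 comparisons and the 30 for the last.

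Rps25 had signals of 9045, 8976 and 7396 in media, 17656, 15944 and 14575 with anti-IgM, 17938, 18814 and 15512 with CpG, 19099, 18858 and 17786 with PL2-3, and 18069, 15300.5 and 18096 with anti-IgM+CpG. Here too every stimulated array was above every media array, and the 4 stimulated groups overlapped except PL2-3 with anti-IgM. Its mean was 8472 ± 933 in media and 16058 ± 1544, 17421 ± 1711, 18581 ± 699 and 17155 ± 1606 in the stimulated groups. In limma the log2 change was 0.92 ± 0.13 with anti-IgM (adjusted p = 0.000209), 1.03 ± 0.13 with CpG (3.09e-05), 1.13 ± 0.13 with PL2-3 (2.28e-05) and 1.01 ± 0.13 with anti-IgM+CpG (1.98e-05). The gene has 1 probe set with a single symbol, so no second one of that kind bears on it. Probe sets listed with several symbols were counted only as a set and were not read for this gene. The call held in all 31, 31, 31 and 30 alternatives.

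Rpl12 had signals of 5028, 3932 and 1683 in media, 6477, 7268 and 5465 with anti-IgM, 5592, 5769 and 4224 with CpG, 5504.5, 7407 and 4434 with PL2-3, and 4762, 5461 and 5028 with anti-IgM+CpG. Media replicate 3 was far below the other arrays, and only anti-IgM did not overlap media. The log2 change was 0.96 ± 0.23 with anti-IgM (limma adjusted p = 0.00677), 0.66 ± 0.23 with CpG (0.0366), 0.80 ± 0.23 with PL2-3 (0.0159) and 0.64 ± 0.23 with anti-IgM+CpG (0.0319). Without media replicate 3 it was 0.62, 0.31, 0.45 and 0.29, and of these only the change with anti-IgM was called (0.0425). On Enzo arrays alone the change with anti-IgM was also 0.62 and was not called (0.0695). The CpG call was also lost without media replicate 2 or any 1 CpG array (0.62 to 0.72), the PL2-3 call without PL2-3 replicate 2 or 3 (0.69 and 0.79), and the anti-IgM+CpG call without its replicate 2 or 3 (0.68 and 0.43). In the fit over all groups the Ambion arrays were lower for Rpl12 than the Enzo arrays (-0.53 on the log2 scale, adjusted p = 0.0262 in limma), although with anti-IgM+CpG the Ambion array was above replicate 1. Every Ambion array is a replicate 3, so kit and replicate number cannot be told apart.

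Rps20 had signals of 113025, 181838 and 98218 in media, 104325, 88506 and 86279 with anti-IgM, 94868, 90621 and 80569 with CpG, 85064, 92818 and 77189 with PL2-3, and 116180, 84324 and 73186 with anti-IgM+CpG. Media replicate 2 was the highest array, and the CpG and PL2-3 arrays were all below the media arrays. The log2 change in limma was -0.51 ± 0.18 with CpG (adjusted p = 0.0395), -0.58 ± 0.18 with PL2-3 (0.0255) and -0.50 ± 0.18 with anti-IgM+CpG (0.0350), and with anti-IgM it was -0.45 ± 0.18 and not called (0.0958). Without media replicate 2 the 3 called values became -0.29, -0.35 and -0.28 and were not called. The calls were lost as well without any 1 CpG array or PL2-3 replicate 1 for CpG (-0.56 to -0.48), without any 1 PL2-3 array for PL2-3 (-0.62 to -0.52), and without replicate 2 or 3 of anti-IgM+CpG for that group (-0.40 and -0.44). The second bright probe set of Rps20 had log2 changes of -0.31, -0.42, -0.46 and -0.32 in the order anti-IgM, CpG, PL2-3 and anti-IgM+CpG and was not called, and a dim one, at a mean signal of 339, had 0.15, 0.36, 0.13 and -0.14. Under the same-median scaling the change with anti-IgM+CpG was 0.10.

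The 2 remaining called genes belong to the large subunit and were called with anti-IgM+CpG alone. Rpl27 had signals of 84724, 81648 and 86206 in media and 154344, 101373 and 99431 with anti-IgM+CpG. These groups did not overlap, and replicate 1 was the highest. Its log2 change was 0.46 ± 0.17 (limma adjusted p = 0.0371), 0.24 without that replicate, and -0.11 and 0.40 on its other 2 probe sets, of which neither was called. The call was lost without any 1 media array (0.44 to 0.47) and without CpG replicate 2 (0.46). Rpl27a had signals of 4718, 14348 and 1722 in media and 782, 2945 and 1212 with anti-IgM+CpG. The groups overlapped, and media replicate 2 was by far the highest array. The log2 change was -1.74 ± 0.49 (limma adjusted p = 0.0102), -0.85 and not called with labelling read from the actin control, and -1.13 and -1.12 and not called without media replicate 2 or anti-IgM+CpG replicate 1. In the fit over all groups its signal was lower on the Ambion arrays, all of them replicate 3 (-1.13, adjusted p = 0.0286 in limma), although with anti-IgM+CpG the Ambion array was above replicate 1.

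**Figure D3:**
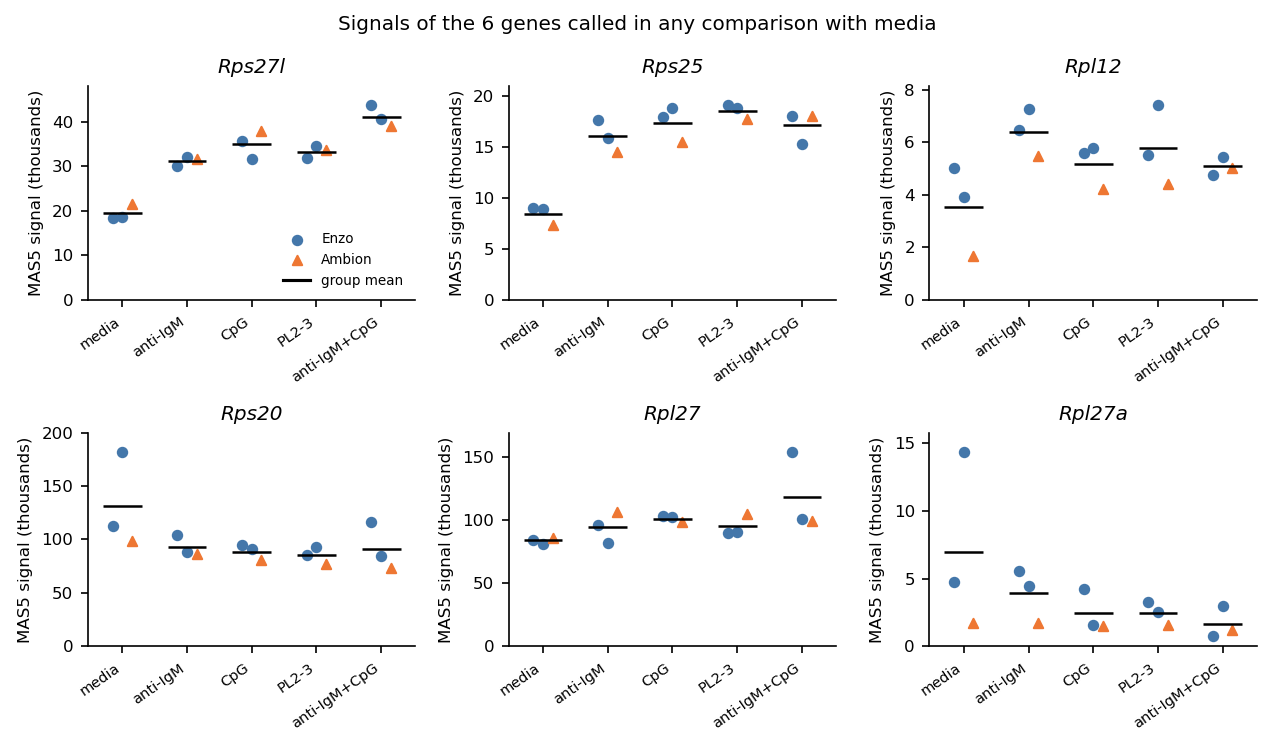
MAS5 signal of the 6 ribosomal protein genes called in any comparison with media, by group. Blue circles are Enzo-labelled arrays, orange triangles Ambion-labelled arrays, and black lines group means. Rps27l and Rps25 separate media from every stimulated array, Rpl12 has 1 low and Rps20 and Rpl27a 1 high media array, and Rpl27 has 1 high anti-IgM+CpG array.

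The subunits were also counted apart, with no test between them, and are to be read against the shares of all genes given above. Of the 19 large subunit genes tested, 1, 1, 1 and 2 were called higher and 0, 0, 0 and 1 lower in the order anti-IgM, CpG, PL2-3 and anti-IgM+CpG, with median log2 changes of -0.16, -0.08, -0.17 and -0.11. Of the 20 small subunit genes tested, 1 was called higher in each comparison (Rps25), and 0, 1, 1 and 1 lower (Rps20), with medians of -0.26, -0.21, -0.27 and -0.23. Neither stalk gene was called. Rplp0, to which the acidic stalk proteins bind, had log2 changes of -0.22, -0.24, -0.34 and -0.20, and Rplp2, one of those acidic proteins, of -0.20, -0.07, -0.18 and 0.02.

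The 3 brightest genes show the pattern of most others. Rpsa, a small subunit protein also known as the laminin receptor, had signals of 153551, 223338 and 123424 in media and 149022, 134404.5 and 131316.5 with PL2-3. All PL2-3 arrays lay within the range of the media arrays. Its mean was 166771 ± 51252 in media, 131924 ± 17231 with anti-IgM, 139407 ± 18400 with CpG, 138248 ± 9458 with PL2-3 and 144210 ± 54864 with anti-IgM+CpG. Rps29 had log2 changes of -0.27, -0.20, -0.26 and -0.24 and Rps18 of -0.22, -0.25, -0.30 and -0.19, with SEs of 0.25 and 0.20, and neither was called. For Rps18, 3 dim probe sets, with mean signals of 610, 646 and 956, gave changes from -0.46 to 1.24 and were not called either.

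The spread between arrays limits what could be seen in the bright genes. Their median SE was 0.19 on the log2 scale. Of the 36, the 95% interval of the change lay within 2-fold in either direction for 36 with anti-IgM, 35 with CpG, 34 with PL2-3 and 35 with anti-IgM+CpG, and within 1.5-fold for 15, 17, 12 and 16. For most of these genes a change of 1.5-fold was therefore not excluded.

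Groups that did not overlap were also few. Of the 45 genes, 3 were higher on all anti-IgM arrays than on all media arrays and 0 lower, where 13.4% and 17.4% of all genes were. For CpG the counts were 3 and 1 (15.9% and 24.6% of all genes), for PL2-3 3 and 2 (14.7% and 19.2%), and for anti-IgM+CpG 3 and 0 (18.9% and 31.4%). Rpl27 was among those apart and higher with CpG and PL2-3, and Rpl13a, a large subunit protein, among those apart and lower with PL2-3, although neither was called there (limma adjusted p = 0.246, 0.501 and 0.0835).

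Among the paralogs and their parent genes, Rps27l was the only one called. Rps27, its parent, had signals of 1228, 4846 and 2152.5 in media and 1291, 1488 and 1011.5 with anti-IgM. These groups overlapped. Its log2 change was -0.87 ± 0.41 with anti-IgM (limma adjusted p = 0.155), -0.05 with CpG, -0.19 with PL2-3 and -0.83 with anti-IgM+CpG, with the same SE. Rpl22l1, the paralog of Rpl22, had log2 changes of -0.03, -0.13, -0.17 and -0.11 (SE 0.14), and Rpl22 of -0.12, -0.07, -0.17 and -0.07 (SE 0.17). The other two probe sets of Rpl22 gave 0.10, -0.03, -0.05 and 0.41, and 0.37, 0.19, 0.47 and -0.07, and were not called. Rpl39l, known for its expression in testis, had log2 changes of 0.40, 0.41, 0.30 and -0.35 (SE 0.34), and Rpl39, a small protein of the large subunit's exit tunnel, of 0.25, -0.21, 0.01 and -0.25 (SE 0.27). Rps4l was dim, at 50.1 to 1360 over the 15 arrays, and its changes of 0.87, 1.21, 0.71 and 1.49 had an SE of 0.77, while Rps4x had log2 changes of -0.36, -0.31, -0.33 and -0.29 (SE 0.21).

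Rps6, the small subunit protein phosphorylated by the S6 kinases, had signals of 4085, 2598 and 3988 in media and 3891, 5610 and 5586.5 with anti-IgM+CpG. The groups overlapped, because anti-IgM+CpG replicate 1 was below 2 media arrays. Its log2 change was 0.11, 0.47, 0.28 and 0.50 ± 0.21 in the usual order and was not called (limma adjusted p = 0.774, 0.102, 0.359 and 0.0647). Rpl11, which in complex with 5S rRNA can bind the p53 inhibitor Mdm2, had log2 changes of 0.03, 0.16, 0.13 and 0.35 ± 0.18 and was not called. Of the 11 tested genes mutated in human Diamond-Blackfan anaemia, an inherited failure of red cell production, 0, 0, 0 and 1 were called, the last being Rpl27. Of all genes tested, 19.5%, 30.1%, 25.9% and 41.9% were called in that order.

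Stimulated groups were then compared with each other. None of the 45 genes was called by limma for CpG against anti-IgM (6.41% of all genes called), PL2-3 against anti-IgM (0.691%), PL2-3 against CpG (3.2%) or PL2-3 against anti-IgM+CpG (1.84%). At an unadjusted p under 0.05 the counts were 0, 0, 0 and 1. The 1 gene was Rps27l, 0.30 ± 0.12 lower on the log2 scale with PL2-3 than with anti-IgM+CpG (interval -0.56 to -0.04, limma adjusted p = 0.185), with all 3 PL2-3 arrays below all 3 anti-IgM+CpG arrays. Between PL2-3 and anti-IgM its difference was 0.09 (-0.17 to 0.35) and between PL2-3 and CpG -0.07 (-0.33 to 0.19). The interval of the difference was within 1.5-fold for 33 of the 36 bright genes for CpG against anti-IgM, 35 for PL2-3 against anti-IgM, 34 for PL2-3 against CpG and 31 for PL2-3 against anti-IgM+CpG. Arrays of the compared groups did not overlap for 0 genes higher and 0 lower for CpG against anti-IgM (8.05% and 10.7% of all genes), 1 and 0 for PL2-3 against anti-IgM (4.29% and 5.41%), 0 and 0 for PL2-3 against CpG (8.41% and 5.94%), and 1 and 1 for PL2-3 against anti-IgM+CpG (11.6% and 5.81%). The gene apart and higher with PL2-3 than with anti-IgM was Rps25, with a difference of 0.21 (-0.06 to 0.49), and that apart and higher with PL2-3 than with anti-IgM+CpG was Rpl39l.

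Many ribosomal protein genes are represented on the array by probe sets listed with several symbols. There were 110 such probe sets, with 46 ribosomal protein symbols, of which 31 had no probe set of their own. At the level of probe sets 107 of them passed the filter, and 81 of these were bright. Of the 81, limma called 0 higher and 0 lower with anti-IgM, 0 and 3 with CpG, 0 and 1 with PL2-3, and 4 and 2 with anti-IgM+CpG, where 12.8%, 21.8%, 18.5% and 37.3% of 27881 probe sets were called. Their median log2 changes were -0.20, -0.16, -0.22 and -0.11, against -0.21, -0.19, -0.21 and -0.19 for the 36 bright genes. Of all 107, 3 higher and 1 lower, 4 and 6, 2 and 2, and 8 and 4 were called in the same order. The medians of the 107 were -0.18, -0.13, -0.19 and -0.07, against -0.20, -0.13, -0.18 and -0.18 for the 45 genes with 1 probe set each. Which gene gave the signal of a probe set with several symbols cannot be told from these data. The 1-symbol probe sets read for Rps27l, Rps20, Rps18 and Rps29 have an x suffix. Probes that they may share with other genes were not checked.

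Lists of related genes were counted on the same arrays, where 10.1%, 13.1%, 12.4% and 17.2% of all genes tested were called higher and 9.32%, 16.9%, 13.5% and 24.8% lower in the order anti-IgM, CpG, PL2-3 and anti-IgM+CpG. Of 22 genes for handling ribosomal proteins and assembling subunits, 16, 18, 16 and 18 (72.7%, 81.8%, 72.7% and 81.8%) were called higher in that order and 0 lower, with median log2 changes of 0.85, 1.09, 1.02 and 1.27. Grwd1, the chaperone of Rpl3, rose by 1.49 with anti-IgM and 1.91 with anti-IgM+CpG, and Tsr2, the chaperone of Rps26, by 1.02, 1.36, 1.24 and 1.60. Its client Rps26 had log2 changes of -0.23, -0.19, -0.35 and -0.26 and was not called. Bysl and Pno1, both needed to mature the small subunit, rose by 1.51 and 1.63 with anti-IgM and by 2.23 and 2.18 with anti-IgM+CpG.

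Of the 76 mitochondrial ribosomal proteins, which serve the separate ribosomes of mitochondria, 29, 46, 43 and 61 (38.2%, 60.5%, 56.6% and 80.3%, against 10.1%, 13.1%, 12.4% and 17.2% of all genes) were called higher and 0 lower, with medians of 0.47, 0.69, 0.59 and 0.95. With labelling read from the actin control, 40 were called with anti-IgM+CpG. The medians of the mitochondrial and of the assembly genes were above 0 under each scaling run, unlike that of the cytosolic ribosomal proteins. No test compared the lists with one another.

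Of 17 tested genes for other mRNAs of the oligopyrimidine kind, 2, 4, 3 and 6 (11.8%, 23.5%, 17.6% and 35.3%, against 10.1%, 13.1%, 12.4% and 17.2% of all genes) were called higher and 1 in each comparison lower, with medians of 0.00, 0.09, 0.09 and 0.26. These values depended on the scaling. Under the same-median scaling 3, 7, 3 and 10 were called higher with medians of 0.25, 0.45, 0.28 and 0.85, and under quantile normalization 3, 4, 4 and 4 with medians of -0.02, -0.01, -0.03 and 0.00. Btf3 and Eef1d, a nascent chain factor and an elongation factor subunit, rose by 0.67 and 0.56 with anti-IgM and by 0.93 and 1.09 with anti-IgM+CpG, and Vim, which encodes vimentin, fell (-1.28, -2.09, -1.88 and -1.77). Fau, which encodes a small subunit protein fused to a ubiquitin-like one and lies outside the naming rule, had log2 changes of -0.20, -0.16, -0.23 and -0.11 and was not called. Of 11 tested genes of growth signalling, 3, 4, 4 and 5 (27.3%, 36.4%, 36.4% and 45.5%, against the same shares of all genes) were called higher and 1, 0, 1 and 2 lower. Under the same-median scaling 5, 5, 5 and 7 were called higher and 0 lower. Myc rose by 2.15, 2.13, 2.10 and 2.25, and Larp1, the binder of the oligopyrimidine motif, by 0.97, 1.24, 1.30 and 1.28.

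**Figure D4:**
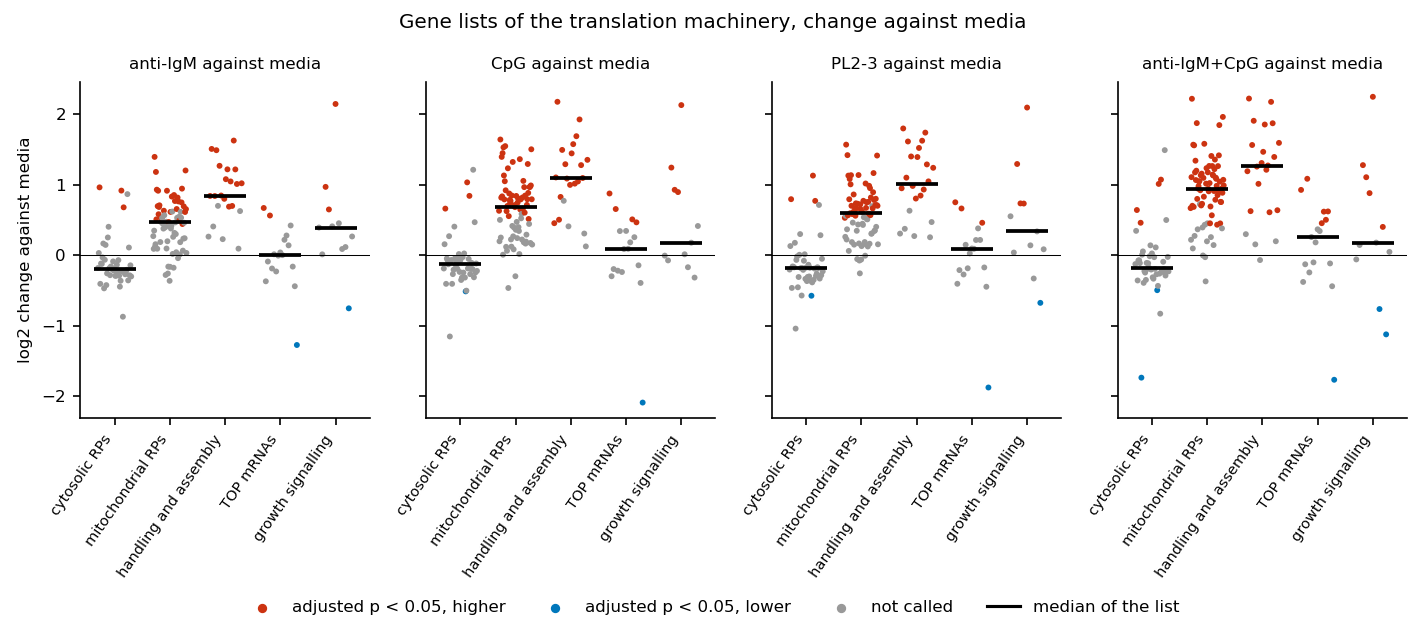
Log2 change against media of each tested gene in 5 lists (45 cytosolic ribosomal proteins, 76 mitochondrial ribosomal proteins, 22 handling and assembly genes, 17 other oligopyrimidine mRNAs and 11 growth signalling genes), in 4 panels by stimulus. Red and blue points passed an adjusted p of 0.05 and black lines are list medians, which for the cytosolic proteins are at -0.20 to -0.13 and for the assembly genes at 0.85 to 1.27.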

How the data were processed

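RNA of 15 samples of AM-14 B cells was hybridised to 1-colour Affymetrix mouse arrays after labelling with Enzo (replicates 1 and 2) or Ambion (replicate 3) kits, per the labels' protocols. The authors deposited linear intensity values. These are MAS5 signals, per the submitters' processing notes, with neither version nor scaling target given. Of 45037 probe sets besides 64 controls, 34945 had 1 symbol, 932 several and 9160 none in GEO's platform annotation, and 34741 matched RefSeq. Signals had 75.2 (the 20th percentile of all signals) added and were taken as log2, with no further normalization. The number of arrays limits the precision, and adding 75.2 understates changes of dim genes.

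limma 3.58.1 in R 4.3.3 (lmFit, then eBayes with an intensity trend, two-sided) was fitted to 1 probe set per gene over all 15 arrays, with 5 groups and the kit, leaving 9 residual degrees of freedom. Adjusted p-values are Benjamini-Hochberg over the 13160 genes tested in each comparison. With 3 arrays against 3, an exact permutation test of 1 gene could not go below 0.1. The script was tested on simulated data for CpG against media, with 200 changed genes drawn from all 13160. It called 0% of the 1.41-fold, 38.8% of the 2-fold and 69.7% of the 4-fold changes, with 4 false calls. The ribosomal protein genes were not simulated apart. No array columns were identical, and replicates correlated at 0.899 to 0.965 within groups. Among media, anti-IgM, CpG and PL2-3, same-numbered arrays deviated together in 18 of 18 pairs (correlation over 0.1). Of pairs of different number, 12 of 60 did, but these also take in anti-IgM+CpG. As replicate numbers hold the kit, a pairing of arrays and an effect of the kit cannot be told apart here.

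Genes named are the called ribosomal proteins (up to 6 each way per comparison), the 3 brightest and 3 dimmest, the paralogs with their parents, the stalk and 5S genes, Rps6, and up to 4 called genes per other list, with Fau, Rps26 and Rpl13a chosen after their values were seen. A gene whose other probe sets moved the opposite way is given with those values. The members and lists were chosen with earlier results of these data known. Alternatives changed normalization, pseudocount (none or 245), filter, kit term, arrays, variance model, probe set and call rule.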

Additional observations from a re-analysis of the deposited data

How the results depend on the processing

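The rises of Rps27l and Rps25 against media were called under every alternative run, with log2 changes of 0.52 to 1.67 for Rps27l and 0.70 to 1.61 for Rps25. The number of ribosomal protein genes called with anti-IgM+CpG, 6 in the report, was 3 without the intensity trend, 2 in a fit of the compared groups alone, 3 with labelling read from the actin control and 3 with no labelling term. With CpG, 4 became 2 without the trend, 2 on Enzo arrays alone and 2 with no labelling term. With PL2-3, 4 became 2 on Enzo arrays alone and 2 with no labelling term. CpG against anti-IgM gave 1 call in a fit of the compared groups alone, and PL2-3 against anti-IgM+CpG gave 1 under the same-median scaling, both against 0. Leaving out each array in turn gave 3 to 4 calls with anti-IgM, 2 to 6 with CpG, 2 to 5 with PL2-3 and 4 to 10 with anti-IgM+CpG (10 without anti-IgM+CpG replicate 1, of which 6 were lower), and 0 in the other 4 comparisons. CpG fell to 2 without media replicate 2 or any 1 CpG replicate, and PL2-3 to 2 without PL2-3 replicate 2 or 3. Rps20 reversed to 0.10 with anti-IgM+CpG under the same-median scaling, and to 0.36 with CpG and 0.13 with PL2-3 on its brightest probe set without an x, s or a suffix. The causes were not tested. With the replicate number as a block in place of the kit, the counts were 3, 4, 4 and 6 against media and 0 in the others, and the block changed no call of a ribosomal protein gene. For anti-IgM+CpG, whose arrays did not deviate with the same-numbered arrays of the other groups (0 of 12 pairs), the numbers are shared in name only. A single array out of 3 decides several values.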

Other observations

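Calls among other genes as bright as the ribosomal proteins were counted on these arrays, a comparison chosen after seeing the data and not tested. Among genes in the top 0.5% by mean signal, higher and lower calls were counted with anti-IgM, CpG, PL2-3 and anti-IgM+CpG, in that order. There, 0 and 0, 0 and 1, 0 and 1, and 1 and 1 of 34 ribosomal protein genes were called (0%, 2.94%, 2.94% and 5.88%). Of all genes tested, 19.5%, 30.1%, 25.9% and 41.9% were called in either direction. Of the 57 other genes in that range, 8 and 1, 15 and 4, 11 and 5, and 20 and 4 were called. The range was set by mean signal over all 15 arrays, stimulated ones included, so it depends on the same signals that were compared. The counts therefore do not show how often genes chosen by their brightness in media alone were called. Between Ambion (all replicate 3) and Enzo arrays, 13.3% of the 45 ribosomal protein genes were called, below the 18% of all genes: 1 (Rps6) was higher and 5 (Rpl12, Rpl27a, Rpl39, Rps26 and Rps27) were lower on Ambion arrays.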
